A study of Mus musculus with 12 samples.

Results

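A group of 9 genes of cell-surface reception, adhesion and signalling was examined in cultured mouse muscle stem cells that had been labelled as transfected with a SIX2 plasmid or with an empty plasmid. The genes were P2ry14, Avpr1a, Gria3, Pcdh19, Igsf9, Smpd3, Peli2, Pcp4l1 and Prr9, taken by name out of 23586 genes in the deposited table. They had been chosen by their large rises in normalized counts under the SIX2 label, so every difference between plasmid labels is given here as a description without a test. All cells carried the genotype Pax3nLacZ-IRES-GFP, a reporter of the paired-box factor PAX3, and were sorted by GFP. The GFP-negative and GFP-positive populations were each grown with 20% serum and basic FGF (4 ng/mL). They received 2 µg of pCR3-Six2, which carries the mouse Six2 coding DNA, or of empty pCR3. Each of the 4 groups had 3 RNA sequencing libraries, and the age of the animals is not given in the sources used here. The labels do not tell whether replicates were separate cultures or animals, and the p-values below then speak only of library-to-library spread, which may be technical.

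Receptors at the surface of a cell turn an outside signal into a change inside it. G protein-coupled receptors such as P2RY14 and AVPR1A do so through G proteins and second messengers, and glutamate receptors by opening an ion pore. Cadherin and immunoglobulin domain proteins hold cells together and are widely used by neurons, while sphingomyelinases and ubiquitin ligases act further inside, on membrane lipids and on signalling proteins. In muscle stem cells such molecules take part in leaving quiescence, in contact with the fibre and in fusion.

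Depth differed between groups and in opposite directions with the plasmid label. Megareads per library ran from 12.4 to 33.2 for GFP-negative control, 34.0 to 40.2 for GFP-negative SIX2, 31.3 to 47.3 for GFP-positive control and 12.6 to 15.5 for GFP-positive SIX2. Six2 itself had between 2 and 36 reads in any library so it cannot verify which plasmid was given, and Pax3 had means of 71.4 normalized counts in GFP-negative and 72.2 in GFP-positive control libraries, so neither label was borne out by its own gene. Groups are therefore named by their labels throughout. Under the SIX2 label Pax3 had means of 16.5 and 10.4 in GFP-negative and GFP-positive libraries, and Pax7, which marks muscle stem cells, went from 111 to 162 and from 98.0 to 170. The 10 muscle stem cell and myoblast markers summed to 318484 normalized counts or more in every library. Their sum was lower under the SIX2 label without overlap. It was 318484 to 359000 against 437172 to 445961 in GFP-negative cells and 382922 to 419210 against 429413 to 447562 in GFP-positive cells. All 10 were tested, with 3 higher and 5 lower in the former and 3 higher and 2 lower in the latter. The largest part of the sum was Des, with means of 168413 and 105967 in GFP-negative and 165778 and 135387 in GFP-positive control and SIX2 libraries. Like Pax7, markers of lower level rose. Myf5 had 1618 and 4042, and 1754 and 2995. Vcam1 had 419 and 1114, and 330 and 1021. The sum thus does not give the direction of each marker. Of 10 keratinocyte markers, 9 were in the table and summed to 420 to 657, with the basal keratin Krt14 at 0 to 5.85. Most of that sum was Trp63, with means of 295 and 341 in GFP-negative and 398 and 374 in GFP-positive control and SIX2 libraries. Of 10 neuronal markers, 8 were in the table and summed to 888 to 1247, with the synaptic gene Snap25 at 0 to 3.90. Most of that sum was Tubb3, with means of 656 and 631 in GFP-negative and 595 and 768 in GFP-positive control and SIX2 libraries. Stmn2 had 152 and 71.5, and 206 and 83.2. Of the endothelial list 2 genes were tested, and 1 was higher and 1 lower in each population. Its defining genes Cdh5 and Pecam1 did not exceed 5.85 and 13.2 normalized counts, while Eng had means of 143 and 296 in GFP-negative and 175 and 295 in GFP-positive control and SIX2 libraries and Vwf 78.8 and 25.1, and 85.9 and 40.6. The pericyte and smooth muscle list, which shares Des with the muscle list, had 8 tested genes. Of these, 2 were higher and 3 lower in GFP-negative and 3 higher and 2 lower in GFP-positive cells. The Schwann and glial list had 4 tested genes, 0 higher and 2 lower in each population. The immune list had 4 tested genes, 1 higher and 0 lower in each. Only 4 keratinocyte and 4 neuronal markers were tested. None of these was higher under the SIX2 label by the limma-trend test, in either population. In each population 1 of the neuronal and 0 of the keratinocyte markers were lower. Among all tested genes, 13.6% were called higher and 14.3% lower in GFP-negative cells, and 12.1% and 11.2% in GFP-positive cells. Whether any marker list differed from these shares was not tested.

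Start regions are shown first, so that the promoters of genes chosen for the same plasmid-label difference can be compared. RefSeq promoter entries on GRCm38.p6 were found for 7 of the 9 genes (4 of the 10 entries belong to P2ry14), each running from 250 bases before to 50 after an annotated start. The 150 bases before the start are printed for 5 genes, 5′ to 3′ on the gene's strand. Capitals mark every CG and every TATAAA, the core of the TATA box, on either strand.
Prr9: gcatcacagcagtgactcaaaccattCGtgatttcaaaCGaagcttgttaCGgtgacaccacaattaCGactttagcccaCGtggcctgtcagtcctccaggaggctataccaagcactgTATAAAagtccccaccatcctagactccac
Avpr1a: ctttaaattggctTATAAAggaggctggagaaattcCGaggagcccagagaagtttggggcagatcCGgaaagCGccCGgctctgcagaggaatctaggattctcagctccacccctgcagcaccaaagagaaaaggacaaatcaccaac
Igsf9: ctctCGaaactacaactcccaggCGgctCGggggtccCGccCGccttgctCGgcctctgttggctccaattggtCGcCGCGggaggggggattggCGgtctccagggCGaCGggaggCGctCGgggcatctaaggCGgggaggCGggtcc
Peli2: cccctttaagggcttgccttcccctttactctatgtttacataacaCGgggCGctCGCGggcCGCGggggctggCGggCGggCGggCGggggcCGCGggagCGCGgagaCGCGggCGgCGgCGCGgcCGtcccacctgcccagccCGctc
Pcdh19: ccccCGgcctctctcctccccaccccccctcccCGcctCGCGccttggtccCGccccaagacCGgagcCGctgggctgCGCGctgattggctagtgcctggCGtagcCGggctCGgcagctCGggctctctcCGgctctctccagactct

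These windows lie at chr3:92123948-92124097 (Prr9, minus strand), chr10:122448349-122448498 (Avpr1a, plus), chr1:172482063-172482212 (Igsf9, plus), chr14:48120719-48120868 (Peli2, plus) and chrX:133688994-133689143 (Pcdh19, minus). The starts are those of the RefSeq entries, while the gene bounds given below are those of GENCODE M21, and the sources differ. By those bounds the Igsf9 window lies inside its gene, which begins at 172481788. The Peli2 window runs past the first base of its gene, at 48120823. The windows were of different kinds. The Prr9 window holds 5 CG and a TATAAA that begins 30 bases before the start, a placement within 40 to 21 bases that 1.87% of all promoters in the table share on the gene's strand. The Avpr1a window holds 4 CG, and its TATAAA begins 137 bases before the start. By contrast, Igsf9 had 16, Peli2 22 and Pcdh19 14 CG in 150 bases, where 28.8% of all promoters have 10 or more and the median is 4. Over the full 300 bases, the 4 P2ry14 entries had 1 to 4 CG. The MEF3 element TCAGGTTTC and the E-box CAGCTG are known as motifs of muscle gene promoters. Searched on both strands of the 300-base entries, TCAGGTTTC, its first 7 letters TCAGGTT and CAGCTG were found in 0 of the 10 entries, where 0.429%, 4.07% and 16.3% of all 32851 promoters hold them. TATAAA was found in 4 of the 10 entries (Avpr1a, Pcp4l1, Prr9 and 1 of the 4 for P2ry14), and 13.6% of all promoters hold it. In Pcp4l1 it begins at the start itself, and in P2ry14 it lies on the opposite strand, 118 bases before the start. Of these, only that of Prr9 begins within 40 to 21 bases before the start. The absence of any of these motifs from a short window says nothing of binding elsewhere.

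All 9 genes had higher levels under the SIX2 label than under the control label in each sorted population without overlap between the libraries, an outcome that the choice of the genes favours and that 10.9% of the 14580 tested genes shared. Taken singly, 22.8% of tested genes were higher without overlap in GFP-negative and 18.7% in GFP-positive samples. For 8 of them, Peli2 being the exception, all 6 SIX2-labelled libraries lay above all 6 control-labelled ones, as they did for 8.76% of tested genes. The median log2 difference of the 9 was 2.45 for the GFP-negative and 1.75 for the GFP-positive population, beside 0.00 and −0.01 for all tested genes. Smpd3 and Peli2 passed the filter on low values (10 normalized counts in 3 libraries) through the SIX2-labelled groups alone, and the other 7 had at least 3 control-labelled libraries at that level. These are genes of low abundance: the 108 values rest on 0 to 374 reads each, and 13 of them on fewer than 10 reads. In bulk libraries such as these, more cells that make a transcript and more transcript per cell cannot be told apart. Of the 5 tested fibro-adipogenic markers, 2 were higher and 0 lower under the SIX2 label in each population. Among all tested genes, 13.6% were called higher and 14.3% lower in GFP-negative libraries, and 12.1% and 11.2% in GFP-positive ones. The summed level of the fibro-adipogenic markers lay between 2774 and 3801 normalized counts in every library. Most of that sum was Gsn, with means of 3446 and 3233 in GFP-negative and 2857 and 2925 in GFP-positive control and SIX2 libraries. In the same order Smoc2 had 58.0 and 257, and 34.8 and 76.7. Ly6a had 8.93 and 32.2, and 4.77 and 27.2, and Pdgfra 8.62 and 8.11, and 15.6 and 8.67. Of the 6 tested tenocyte markers, 2 were higher and 1 lower in GFP-negative and 1 higher and 1 lower in GFP-positive cells. The tenocyte list summed to 4579 to 6261 in control-labelled and 7021 to 9245 in SIX2-labelled libraries. Most of that sum was Tnc, an extracellular matrix gene, with means of 3285 and 6248 and of 2800 and 5725 under the control and SIX2 labels. Scx and Mkx, both transcription factors of tendon, went opposite ways. Scx had 436 and 307 and 467 and 304, and Mkx 25.3 and 77.0 and 46.6 and 88.1. The part of these and the other marker lists in the levels of the 9 genes was not tested.

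**Figure D1:**
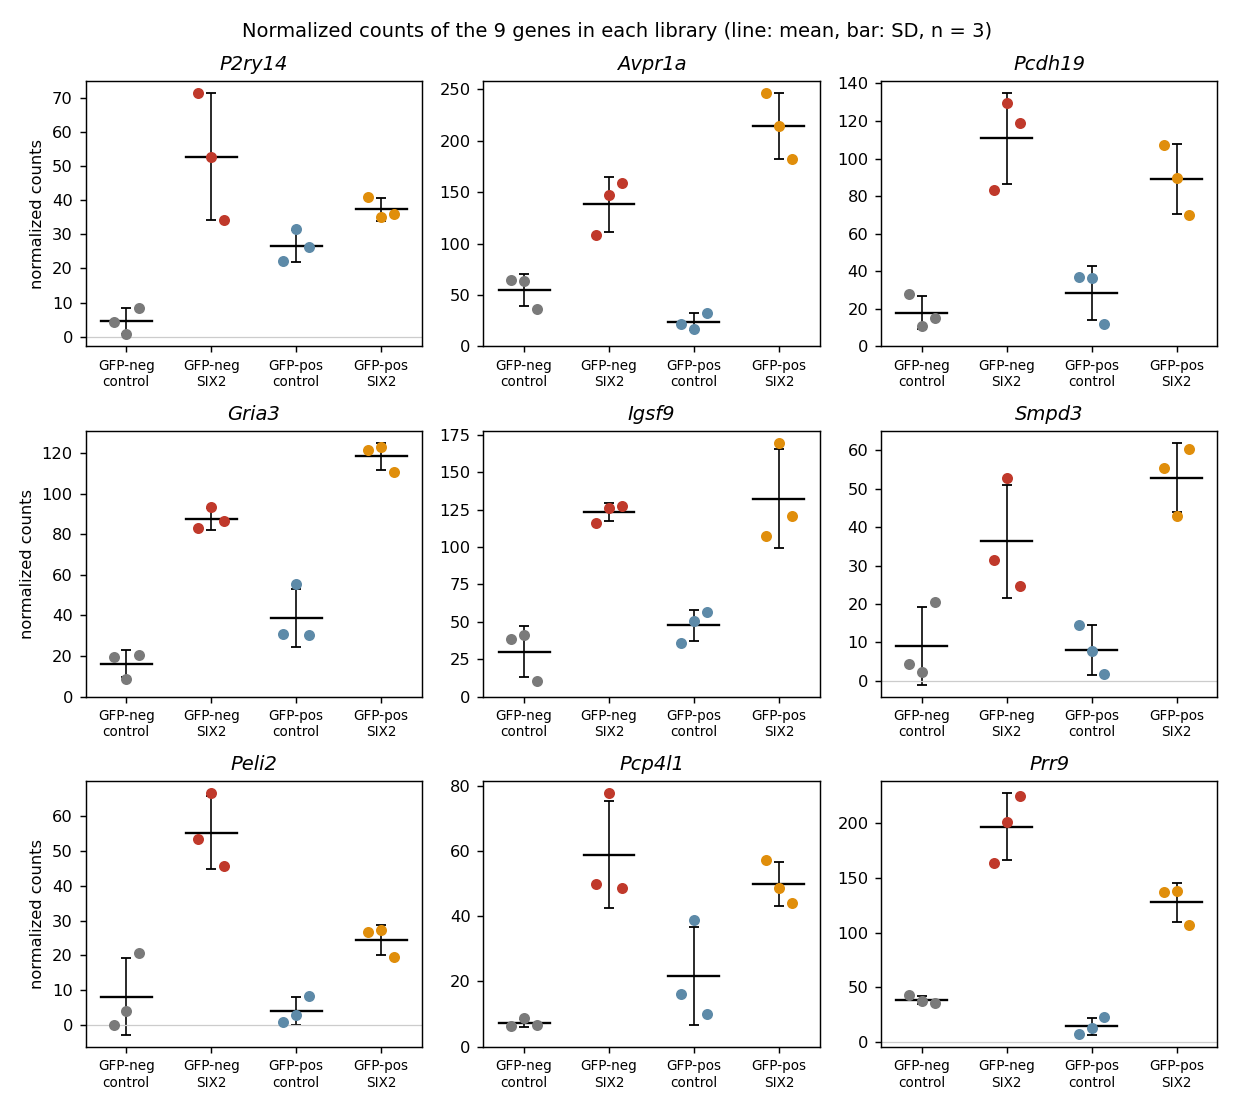
Normalized counts (vertical axes, linear, each panel with its own scale) of the 9 genes in each of the 12 libraries, with group mean (line) and SD (bar), n = 3. In every panel the SIX2-labelled points of a population lie above its control-labelled points, and P2ry14 shows the smallest step in GFP-positive libraries, from 26.6 to 37.3.

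The receptors differed in which population showed the larger step. P2ry14 (ENSMUSG00000036381.13, GRCm38 chromosome 3, 59113855 to 59153618, minus strand) encodes a G protein-coupled receptor for UDP-glucose and related UDP-sugars. It had 4.28, 0.793 and 8.44 normalized counts in GFP-negative control libraries, from 2, 1 and 9 reads, against 71.4, 52.7 and 34.3 in GFP-negative SIX2 libraries. GFP-positive control libraries already held 22.2, 31.5 and 26.2, and GFP-positive SIX2 libraries 41.1, 35.1 and 35.8. The control-labelled GFP-negative libraries thus stood alone at the bottom, the GFP-positive control libraries came next, and both SIX2-labelled groups overlapped at the top. The log2 difference between plasmid labels was 3.53 ± 0.52 (SE) in GFP-negative libraries, the 11th highest of all tested genes, and 0.48 ± 0.52 in GFP-positive libraries, where it ranked 2335. As a ratio of means these were 11.7-fold and 1.40-fold. The former log2 difference was 2.87 without GFP-negative control library 2. The gene lies inside Med12l on the opposite strand without sharing exon bases, and Med12l did not pass the threshold, with means of 53.0 and 31.9 in GFP-negative and 57.8 and 60.2 in GFP-positive control and SIX2 libraries (limma-trend adjusted p = 0.140 between plasmid labels in GFP-negative cells, log2 difference −0.00 in GFP-positive cells). Its neighbours in the receptor cluster were nearly silent, P2ry12 reaching 3.61 and Gpr171 5.85 normalized counts at most.

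Avpr1a (ENSMUSG00000020123.6, chromosome 10, 122448499 to 122453452, plus strand) encodes the V1a vasopressin receptor, which signals through Gq to phospholipase C and calcium. GFP-positive control libraries had 22.2, 16.6 and 32.9 normalized counts and GFP-positive SIX2 libraries 247, 214 and 182. In GFP-negative libraries the values were 64.3, 63.4 and 36.6 under the control label and 109, 147 and 159 under the SIX2 label. No 2 neighbouring groups overlapped, and the order ran from GFP-positive control through GFP-negative control and GFP-negative SIX2 to GFP-positive SIX2. The larger step was thus in the population with the lower starting level, with log2 differences of 3.15 ± 0.29 for GFP-positive and 1.35 ± 0.29 for GFP-negative cells, or 8.97-fold and 2.53-fold.

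Gria3 (ENSMUSG00000001986.16, chromosome X, 41400854 to 41678601, plus strand) encodes the GluA3 subunit of AMPA-type glutamate receptors. GFP-negative control libraries held 19.3, 8.72 and 20.6 normalized counts and GFP-positive control libraries 30.6, 55.3 and 30.4. GFP-negative SIX2 libraries held 82.8, 93.5 and 86.6, and GFP-positive SIX2 libraries 121, 123 and 111. That is also the order of the groups, with no overlap between neighbours and with GFP-positive libraries the higher under both plasmid labels. The log2 differences between plasmid labels were 2.45 ± 0.33 (GFP-negative) and 1.64 ± 0.33 (GFP-positive).

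The adhesion genes showed a gap between plasmid labels, with sorted populations that overlapped within each label. Pcdh19 (ENSMUSG00000051323.16, chromosome X, 133582860 to 133688987, minus strand) encodes a protocadherin, a cell adhesion protein best known from brain. It had 27.8, 11.1 and 15.01 normalized counts in GFP-negative control and 36.7, 36.5 and 11.8 in GFP-positive control libraries. Under the SIX2 label it had 83.5, 130 and 119 in GFP-negative and 107, 89.6 and 70.01 in GFP-positive libraries. Control-labelled groups overlapped each other, and so did SIX2-labelled groups, with a clear gap between the labels (log2 differences 2.63 ± 0.43 and 1.75 ± 0.43).

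Igsf9 (ENSMUSG00000037995.15, chromosome 1, 172481788 to 172498878, plus strand) encodes an immunoglobulin superfamily membrane protein, studied in neurons for its part in dendrites and synapses. Its values were 38.6, 41.2 and 10.3 in GFP-negative control, 116, 126 and 128 in GFP-negative SIX2, 36.0, 50.4 and 56.5 in GFP-positive control, and 107, 170 and 120 in GFP-positive SIX2 samples. The third GFP-negative control library was the lowest of the 12, and without it the log2 difference in GFP-negative libraries was 1.60 in place of 2.22 ± 0.41. The difference in GFP-positive libraries was 1.45 ± 0.41, and the populations overlapped under each label.

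Both signalling enzymes were barely detected under the control label. Smpd3 (ENSMUSG00000031906.9, chromosome 8, 106252548 to 106337988, minus strand) encodes neutral sphingomyelinase-2, which releases ceramide from sphingomyelin. It had 4.28, 2.38 and 20.6 normalized counts in GFP-negative control and 14.5, 7.75 and 1.69 in GFP-positive control libraries, against 31.4, 52.7 and 24.7 in the GFP-negative SIX2 group and 55.4, 42.9 and 60.2 in the GFP-positive SIX2 group. Control libraries scattered widely, and the highest GFP-negative control library (20.6) came close to the lowest SIX2-labelled one (24.7), a ratio of 1.20. The log2 differences were 2.28 ± 0.71 and 2.90 ± 0.71. The former was 3.07 without GFP-negative control library 3, and the latter 2.19 without GFP-positive control library 3. Smpd3 shares 247 exon bases, or 4.72% of its exons, with Prmt7 on the other strand, whose means were 2477 and 2582 in GFP-negative and 2490 and 2969 in GFP-positive control and SIX2 libraries. Reads in the shared stretch cannot be assigned by strand. Prmt7 was higher under the SIX2 label in GFP-positive libraries (log2 difference 0.25 ± 0.07 SE, limma-trend adjusted p = 0.0131) and not past the threshold in GFP-negative ones (0.06, adjusted p = 0.549).

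Peli2 (ENSMUSG00000021846.9, chromosome 14, 48120823 to 48281575, plus strand) encodes a Pellino E3 ubiquitin ligase of Toll-like and interleukin-1 receptor signalling. GFP-negative control libraries had 0, 3.96 and 20.6 normalized counts, where the 0 allows up to 6.43 (3 reads), and GFP-positive control libraries 0.765, 2.77 and 8.44. The SIX2-labelled libraries had 53.5, 66.5 and 45.7 in GFP-negative and 26.8, 27.3 and 19.5 in GFP-positive cells. The third GFP-negative control library, at 20.6, lay above the lowest GFP-positive SIX2 library, which is the overlap that sets Peli2 apart from the other 8 genes. Log2 differences between plasmid labels were 3.55 ± 0.89 and 2.67 ± 0.89, the widest errors of the group. The former was 2.42 without GFP-negative control library 1 and 4.64 without library 3, and the latter 2.08 without GFP-positive control library 1 and 3.29 without library 3. A transcribed pseudogene, Gm6498, covers 869 exon bases of Peli2 (9.56%) on the same strand, so part of its reads is uncertain.

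Of the small proteins, Pcp4l1 (ENSMUSG00000038370.6, chromosome 1, 171173262 to 171196268, minus strand) encodes a relative of the calmodulin-binding protein PCP4. GFP-negative control libraries held 6.43, 8.72 and 6.57 normalized counts, and GFP-negative SIX2 libraries 49.98, 77.7 and 48.7. The GFP-positive values were 16.1, 38.7 and 10.1 under the control label against 57.2, 48.7 and 44.0. The second GFP-positive control library came close to the SIX2-labelled range, and the log2 difference was 1.37 ± 0.43 there and 2.84 ± 0.43 in GFP-negative libraries.

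Prr9 (ENSMUSG00000056270.3, chromosome 3, 92122204 to 92123947, minus strand) encodes a small proline-rich protein and lies in the region of the epidermal differentiation genes. It had the highest mean level of the 9 per length of exon in 3 of the 4 groups, the exception being GFP-positive control libraries, where Pcp4l1 had 13.7 and Prr9 12.2 normalized counts per kb. Prr9 stood at 166 per kb in GFP-negative SIX2 libraries, where Avpr1a came next at 51.8, Pcp4l1 had 37.3 and Igsf9 18.6. Per library, Prr9 had 42.8, 37.3 and 35.6 normalized counts in GFP-negative control, 164, 202 and 225 in GFP-negative SIX2, 7.65, 12.7 and 22.8 in GFP-positive control, and 138, 138 and 107 in GFP-positive SIX2 samples. No neighbouring groups overlapped, and GFP-negative libraries were the higher under either plasmid label. Log2 differences between plasmid labels were 2.31 ± 0.32 and 3.18 ± 0.32, the latter the 9th highest of all tested genes. The nearest tested gene on one side, Lor, which encodes loricrin of the cornified envelope, stayed between means of 4.53 and 13.6 normalized counts, with log2 differences of −0.00 and 0.98 between plasmid labels (limma-trend adjusted p = 0.425 for the latter).

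**Figure D2:**
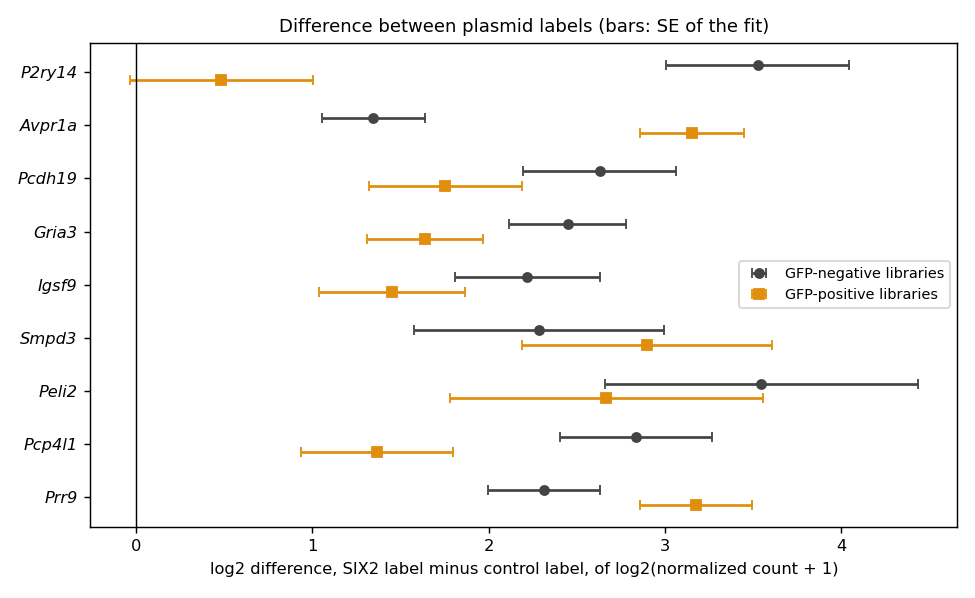
Log2 difference of log2(normalized count + 1) between plasmid labels (horizontal axis, SIX2 minus control) for each gene in GFP-negative (circles) and GFP-positive (squares) libraries, with the SE of the fit as bars. P2ry14 stands at 3.53 and 0.48 and Avpr1a at 1.35 and 3.15 while the SE bars of the populations overlap for Igsf9, Smpd3 and Peli2.

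How the step differed between populations is given as a value only, since the plasmid-label comparisons that chose the genes make it up. GFP-positive minus GFP-negative, it was −3.04 ± 0.73 (SE) for P2ry14, −1.47 ± 0.61 for Pcp4l1, 1.81 ± 0.41 for Avpr1a and 0.86 ± 0.45 for Prr9 on the log2 scale, and between −0.88 and 0.61 for the other 5. Over all tested genes this difference passed the threshold for 0 genes with limma-trend, although 2437 had an unadjusted p below 0.05. The count was 0 by edgeR and 562 by DESeq2.

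The comparison between GFP labels did not choose the genes, though it uses the same libraries. A low value in the control libraries of a population enlarges both its plasmid-label difference and the GFP-label difference. Among genes without overlap between GFP labels under the control label, this touches P2ry14, Gria3 and Pcp4l1 through their low GFP-negative control values. It touches Avpr1a and Prr9 through their low GFP-positive control values. The tests below, and the count of genes they call, are thus not fully independent of the choice. Under the control label, 3 of the 9 genes passed the threshold (limma-trend, Benjamini-Hochberg over all genes), where 3.48% of tested genes did (0.919% higher and 2.56% lower in GFP-positive libraries). P2ry14 was higher in GFP-positive libraries, by 2.61 ± 0.52 on the log2 scale (adjusted p = 0.0189), and all 3 of its GFP-positive libraries exceeded all GFP-negative ones. Avpr1a was lower, by −1.17 ± 0.29 (adjusted p = 0.0451), as was Prr9, by −1.48 ± 0.32 (adjusted p = 0.0257), again without overlap between libraries. Gria3 had a difference of 1.24 ± 0.33 (adjusted p = 0.0571) and Pcp4l1 of 1.26 ± 0.43 (adjusted p = 0.123), both without overlap and not past the threshold. Pcdh19, Igsf9, Smpd3 and Peli2 overlapped between GFP labels, with adjusted p of 0.278 or above. A lack of overlap was common under the control label. Of the 14580 tested genes, 1901 were higher and 2060 lower in GFP-positive libraries without overlap.

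These 3 calls rest on few libraries. With only the 6 control-labelled libraries in the fit, none passed (adjusted p = 0.0621 for P2ry14, 0.115 for Avpr1a and 0.0947 for Prr9). Leaving out GFP-negative control library 1, GFP-positive control library 1 or GFP-positive control library 2 ended all 3 calls, with P2ry14 at adjusted p = 0.0708, 0.0607 and 0.0636. Leaving out GFP-negative control library 2 ended those of Avpr1a and Prr9, and GFP-negative control library 3 that of Prr9. Avpr1a also lost its call without any of the GFP-negative SIX2 libraries or GFP-positive SIX2 library 2, which enter only through the shared estimate of spread. Avpr1a also lost its call with no filter (adjusted p = 0.0733), quantile normalization (0.0549), a replicate block (0.0844) or edgeR (0.0542). In all, edgeR called 2 of the 9 genes and DESeq2 4, Gria3 being added at adjusted p = 0.0110. With all libraries thinned to the depth of the shallowest, P2ry14 had a difference of 1.84 (adjusted p = 0.0652).

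Under the SIX2 label none of the 9 genes passed the threshold between GFP labels with limma-trend, edgeR or DESeq2, and 0.192% of tested genes did with limma-trend (0.0137% higher and 0.178% lower in GFP-positive libraries). Before adjustment, Avpr1a was under 0.05 with limma-trend (1 gene), and Avpr1a and Prr9 were with either count-based tool (2 genes). The differences were 0.64 ± 0.29 for Avpr1a (adjusted p = 0.379) and −0.62 ± 0.32 for Prr9 (adjusted p = 0.425), the same direction as under the control label for Prr9 and the opposite for Avpr1a. Avpr1a and Gria3 (0.43 ± 0.33, limma-trend adjusted p = 0.611) were higher in GFP-positive libraries without overlap. Prr9 and Peli2 (−1.14 ± 0.89, adjusted p = 0.615) were lower without overlap. P2ry14 overlapped between GFP labels and had −0.43 ± 0.52 (adjusted p = 0.765). Without overlap, 9.05% of tested genes were higher and 8.16% lower in GFP-positive libraries.

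**Figure D3:**
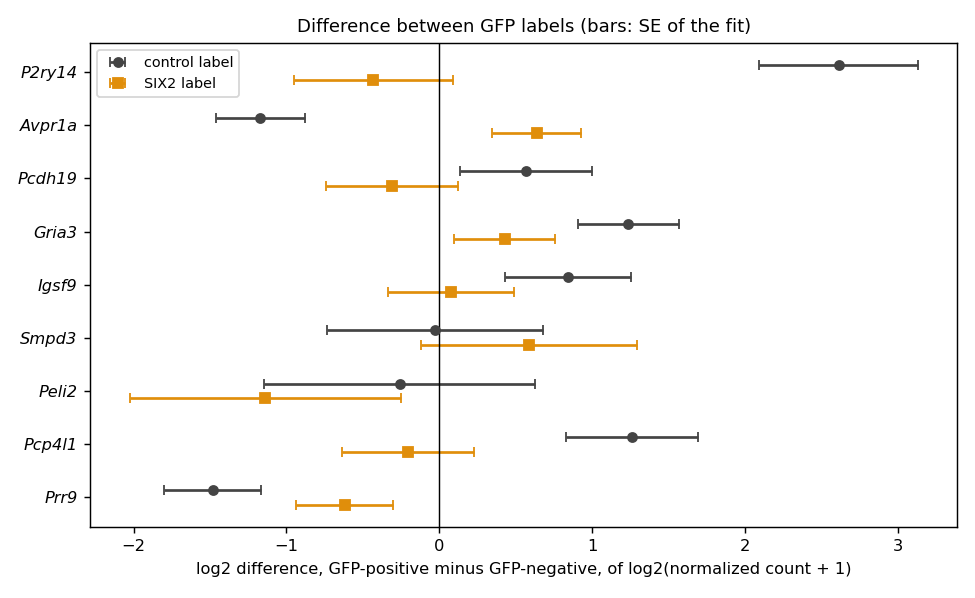
Log2 difference between GFP labels (horizontal axis, GFP-positive minus GFP-negative) for each gene under the control label (circles) and the SIX2 label (squares), with the SE of the fit as bars. Under the control label P2ry14 lies at 2.61, Avpr1a at −1.17 and Prr9 at −1.48, and the values under the SIX2 label lie between −1.14 and 0.64.

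Relatives and pathway partners of the 9 genes were read from 11 lists built by family and function. Of their 296 genes, 199 were tested. Between plasmid labels, 37 rose and 31 fell in GFP-negative libraries (27.9% of all tested genes were called there), and 33 rose and 26 fell in GFP-positive libraries (23.3% called). The called shares were 34.2% and 29.6%, and the median log2 differences of the 199 genes were 0.01 and 0.04. The difference between these shares and those of all genes was not tested.

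Around the receptors, single genes moved in both directions. Of 17 tested purinergic receptors and nucleotide-handling genes, 2 rose and 4 fell in GFP-negative libraries, and 2 rose and 3 fell in GFP-positive ones. Panx1, a channel that releases ATP, fell by 0.78 ± 0.18 and by 0.79 ± 0.18 on the log2 scale (limma-trend adjusted p = 0.00596 and 0.00651), and the adenosine receptor gene Adora1 by 0.67 and 0.74. Enpp1, an ectoenzyme that cleaves nucleotides, rose by 1.38 ± 0.45 and 1.48 ± 0.45. Among 10 genes that make or use UDP-sugars, 4 rose and 2 fell in GFP-negative and 4 rose and 3 fell in GFP-positive libraries. Ugp2, which makes UDP-glucose, the agonist of P2RY14, fell from 5894 to 4206 and from 6093 to 4155 normalized counts, whereas Ugcg, which uses UDP-glucose to make glucosylceramide, rose from 486 to 847 and from 467 to 788. The purinergic count of 6 called genes was 3 without GFP-negative control library 2, and that of 5 was 3 without GFP-positive control library 1 or 2 or GFP-positive SIX2 library 1 or 2.

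Of 15 tested receptors related to AVPR1A by ligand or by Gq coupling, 1 rose and 1 fell in GFP-negative and 1 rose and 2 fell in GFP-positive libraries. The α1-adrenergic receptors went opposite ways: Adra1a rose from 5.81 ± 3.35 to 24.0 ± 11.7 and from 9.59 ± 4.31 to 39.0 ± 13.5 (SD, n = 3; limma-trend adjusted p = 0.0181 and 0.0210), and Adra1b fell from 534 ± 82.8 to 135 ± 15.4 and from 330 ± 103 to 134 ± 52.6 (adjusted p = 0.000222 and 0.00407). Further down the pathway, 6 of 23 Gq and calcium effectors rose and 3 fell in GFP-negative libraries, with 5 and 1 in GFP-positive ones. Gnaq, the Gq α subunit itself, rose from 499 to 908 and from 499 to 880, Gna11, its close relative, by 0.34 and 0.50 on the log2 scale, and Rgs4, which shortens Gq signals, by 0.87 and 0.65. The receptor count was 1 without GFP-negative control library 1 or GFP-negative SIX2 library 3 and, in the other population, 1 without GFP-positive SIX2 library 1. The 9 effectors called in GFP-negative cells were 4 or 5 without control library 1 or 2 or SIX2 library 2 or 3 of that population.

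The ionotropic glutamate receptor list, with AMPA receptor partners, had 18 tested genes, of which 3 rose and 3 fell in GFP-negative and 2 rose and 4 fell in GFP-positive libraries. Grin2a, an NMDA receptor subunit, rose from 47.6 to 150 and from 66.6 to 155 normalized counts, and Nsg1, an endosomal protein tied to AMPA receptor traffic, by 0.99 ± 0.28 and 2.10 ± 0.28. Nptx1, a pentraxin that clusters AMPA receptors, fell by 0.67 and 0.63. Calls were of either direction. The 6 in GFP-negative cells were 3 without control library 3, and the 6 in GFP-positive cells were 1 or 2 without control library 1 or 3 or SIX2 library 1 or 2.

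Both adhesion families held called genes of either direction. Of 18 protocadherins and cadherins, 5 rose and 2 fell in GFP-negative, and 3 rose and 1 fell in GFP-positive libraries. Cdh11, a mesenchymal cadherin, rose from 367 ± 117 to 988 ± 125 and from 226 ± 74.3 to 907 ± 128 (limma-trend adjusted p = 0.000387 and 3.82e-05), Pcdh18 by 0.80 and 0.69, and Cdh2, N-cadherin, fell by 0.27 and 0.36. Of 22 immunoglobulin superfamily adhesion genes, 4 rose and 3 fell in GFP-negative and 5 rose and 2 fell in GFP-positive libraries. Vcam1, a surface marker of muscle stem cells, rose from 419 ± 48.9 to 1114 ± 151 and from 330 ± 39.5 to 1021 ± 117, while Ncam1 fell by 0.26 and 0.39 on the log2 scale. The 7 immunoglobulin genes called in GFP-positive cells were 4 without control or SIX2 library 1 of that population.

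Among 27 genes of sphingomyelin and ceramide metabolism, 4 rose and 6 fell in GFP-negative and 3 rose and 2 fell in GFP-positive libraries. Cers2, a ceramide synthase for very long chains, rose by 0.60 ± 0.07 and 0.54 ± 0.07 (limma-trend adjusted p = 6.18e-05 and 0.000146), and Cers1, the synthase typical of muscle and brain, fell by 0.60 and 0.75. The acid sphingomyelinase Smpd1 fell by 0.36 in GFP-negative libraries (adjusted p = 0.00241) and had −0.16 in GFP-positive ones (adjusted p = 0.125). In the Pellino, Toll-like and interleukin-1 receptor list, 2 of 26 genes rose and 1 fell in GFP-negative, and 4 rose and 1 fell in GFP-positive libraries. The adaptors Tirap (0.79 and 0.85) and Myd88 (0.52 and 0.68) rose and the receptor Tlr6 fell (by 0.52 and 0.64) in both. The 5 sphingolipid genes called in GFP-positive cells were 2 without control or SIX2 library 2. The 3 of the Pellino list in GFP-negative cells were 1 without any of the control libraries or SIX2 library 2 or 3, and the 5 in GFP-positive cells 3 without SIX2 library 1.

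Calmodulin and its partners had 2 of 14 genes higher and 3 lower in each population, led by Camk2a, a calmodulin-dependent kinase, which fell from 1049 to 591 and from 1172 to 563 normalized counts. Of the epidermal differentiation complex, the region of Prr9, only 9 of 30 genes were tested, and 8 of these were S100 calcium-binding genes. There 4 rose and 3 fell in GFP-negative and 2 rose and 4 fell in GFP-positive libraries. S100a4 rose from 4245 to 7795 and from 3541 to 7132, and S100a1, the form typical of striated muscle, fell by 0.52 and 0.55. The 5 calmodulin genes called were 3 without GFP-negative SIX2 library 1 or 2 and, in GFP-positive cells, 3 without control library 1 or 2. The 7 epidermal complex genes in GFP-negative cells were 4 without control library 2 or SIX2 library 1.

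**Figure D4:**
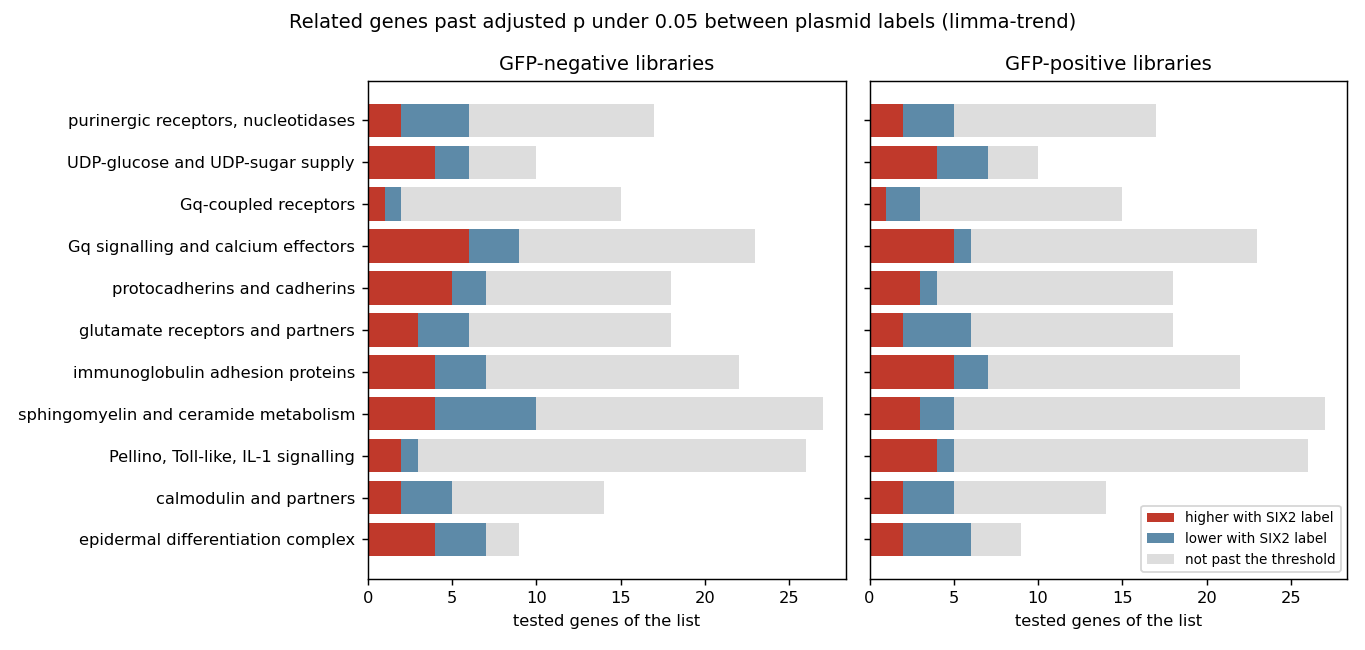
Number of tested genes (horizontal axis) in each of the 11 related lists that were higher (red), lower (blue) or not past the threshold (grey) between plasmid labels, in GFP-negative (left) and GFP-positive (right) libraries. Over all lists 37 rose and 31 fell on the left and 33 rose and 26 fell on the right.

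The nearest tested genes on either side, 18 in all, lay up to 3117 kb away (Diaph2 from Pcdh19). Under the SIX2 label 3 were higher and 1 lower in GFP-negative libraries and 4 higher and 2 lower in GFP-positive ones. Their median log2 differences were 0.01 and 0.20. Among all tested genes, 13.6% were called higher and 14.3% lower in GFP-negative libraries, and 12.1% and 11.2% in GFP-positive ones. Whether the neighbours differed from these shares was not tested. The closest was Tagln2, an actin-associated protein gene that begins 1.17 kb after Igsf9 on the same strand. It rose from 2857 ± 697 to 5176 ± 113 and from 1856 ± 108 to 5370 ± 749 (log2 differences 0.88 and 1.52). Tomm40l beside Pcp4l1 rose by 0.29 and 0.43, and Tspan6, 202 kb from Pcdh19, by 0.33 and 0.32.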

How the data were processed

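RNA of at least 50000 sorted and cultured cells per sample was made into SMART-Seq2 cDNA and cut with Tn5, per the labels' protocols, a method that as described does not mark strand. Tools listed, per the submitters' processing notes and without settings, are STAR 2.7.11a, RSEM 1.3.3, DESeq2 1.42.0, FastQC 0.12.1 and MultiQC 1.19, with build GRCm38. The deposited values are a linear signal: the authors' normalized counts per gene, each library divided by 1 size factor. Divided by the value of 1 read, 100% of entries came out whole (tolerance 1e-04), and that read was worth 0.553 to 2.14 normalized counts. No replicate pair was closer than sampling noise (chi-square per degree of freedom 7.71 to 49.4).

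Genes with 10 normalized counts in 3 libraries (14580) were fitted together as log2(normalized count + 1) by limma-trend in limma 3.58.1 under R 4.3.3. This scale understates changes of low genes. The fit had 4 group means, two-sided tests, Benjamini-Hochberg adjustment and a threshold of 0.05. Levels per kb use the union of exons of GENCODE M21, to which 99.8% of identifiers matched. The members, the lists and the rule for named genes were chosen with earlier results of these data known. Named are the members, Six2, Pax3 and Pax7 as checks, from each list the genes of smallest p per population (2 higher, 2 lower at most), and per member the 3 genes with the most similar profile. Marker genes, neighbours, overlapping genes and receptor-cluster genes were named for position or role, some once their values were known. In simulated reads for the GFP-label comparison under the control label, the fit recovered 78% of 2-fold and 99% of 4-fold changes with 4 false calls among 14343 genes. The spread of the simulated reads followed a fixed formula of the mean and was not estimated from these libraries. The simulation therefore checks the fit and cannot give its power or its false calls in these data. Alternatives were other pseudocounts (0.5, 5), filters and scalings, smaller fits, a replicate block, library weights, thinning, leaving out each library, and edgeR 4.0.16 and DESeq2 on the recovered reads. Figures used matplotlib 3.10.9.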

Additional observations from a re-analysis of the deposited data

How the results depend on the processing

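Of 432 alternative values of the 9 genes' plasmid-label differences, 432 stayed above 0. The choice of the genes for large rises in these same libraries favours that outcome, so it is a description only. The differences moved by more than the spread between libraries for P2ry14 in GFP-negative libraries (2.63 with a pseudocount of 5 and 4.31 with library weights). They did so for Gria3 there (2.89 with library weights) and for Igsf9 (1.60 without GFP-negative control library 3). Leaving out single libraries moved Peli2 between 2.42 and 4.64 in GFP-negative and between 2.08 and 3.29 in GFP-positive libraries, and Smpd3 between 1.73 and 3.07 and between 2.19 and 3.46. Without single libraries the median of the 9 lay between 2.35 and 2.66 in GFP-negative and between 1.59 and 2.02 in GFP-positive libraries. The count of the 9 genes past the threshold between GFP labels under the control label, 3 in the fit of all libraries, was 0 with only the compared libraries and 5 with library weights (Gria3 and Pcp4l1 added), and 0 to 5 without single libraries. Under the SIX2 label it was 0 in each alternative run. Over all genes, the count between plasmid labels in GFP-negative libraries went from 4075 to 6142 with library weights and lay between 2989 and 4301 without single libraries, and in GFP-positive libraries between 2519 and 3493 around 3394. Between GFP labels under the control label it went from 507 to 1520 with library weights and 1087 with DESeq2, and lay between 68 and 820 without single libraries: 68, 187 and 174 on leaving out GFP-negative control library 1, 2 or 3, then 85, 196 and 820 for GFP-positive control library 1, 2 or 3, and 314 without GFP-negative SIX2 library 2. Under the SIX2 label it went from 28 to 292 with DESeq2 and lay between 13 and 60 without single libraries (60, 14 and 13 without GFP-negative SIX2 library 1, 2 or 3, and 17 without GFP-positive SIX2 library 2). Related genes of the 11 lists numbered 49 to 72 around 68 in GFP-negative and 41 to 60 around 59 in GFP-positive libraries without single libraries.

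No pairing by the replicate numbers in the titles was seen: deviations of same-numbered libraries correlated between −0.20 and 0.05 over 18 pairs, none above 0.1. Of 36 pairs with other numbers, 2 were above 0.1, the highest at 0.17. With 3 libraries per group these correlations cannot show that the libraries were unpaired, so the block fit is a check only. With the replicate block the count under the control label between GFP labels was 298, and 2 of the 9 genes passed (P2ry14 and Prr9, with Avpr1a at adjusted p = 0.0844).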

Other observations

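Across the 12 libraries the 9 genes varied together to unequal degrees, with Pearson correlations of log2 values between 0.33 and 0.93 over their 36 pairs (median 0.70). These are descriptions, since all points share the plasmid labels that chose the genes. Among named genes outside the group, the closest profiles belonged to Naa20, a subunit of an N-terminal acetyltransferase, for Prr9 (r = 0.98), Mpp7, a scaffold protein, for Pcdh19 (0.98), Tuba1c, an α-tubulin, for Avpr1a (0.96), Cavin2, a caveola protein, for Pcp4l1 (0.96), Cep126 for Smpd3 (0.95), Esm1, a secreted proteoglycan, for Igsf9 (0.95), Svep1, an extracellular matrix protein, for Peli2 (0.95), Dusp6, a phosphatase of ERK, for Gria3 (0.94) and Rad54l2 for P2ry14 (0.92).

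Slit2, a secreted guidance cue, was among the 3 closest genes for both P2ry14 (0.92) and Gria3 (0.94), with means of 0.938 in GFP-negative control, 8.48 in GFP-positive control, 22.6 in GFP-negative SIX2 and 28.8 in GFP-positive SIX2 libraries. Esm1 had the same order, with 1.24, 10.4, 30.6 and 37.3 normalized counts. Cavin2, close to both Gria3 and Pcp4l1, had 143, 265, 1014 and 950. In all 3 the GFP-negative control libraries had the lowest mean, as for P2ry14, Gria3, Pcdh19, Igsf9 and Pcp4l1, whereas Avpr1a, Smpd3, Peli2 and Prr9 had theirs in GFP-positive control libraries. The 3 were picked for their likeness to P2ry14, Gria3, Igsf9 or Pcp4l1, which favours a shared lowest group. Slit2 and Esm1 were near the floor there, where 1 read was worth 0.793 to 2.14 normalized counts.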
